A study of Oryctolagus cuniculus with 36 samples.

Results

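The genes described here are 150 of the 9419 rabbit genes measured in liver and terminal ileum. They were taken from genes with a minimum liver level whose ratio of liver to ileum level lay within wide limits, given below. Among those genes they stood highest in the embolized lobe over the non-embolized lobe of the liver, under vehicle and under obeticholic acid alike. The log2 ratio of liver to ileum level in the 150 genes ran from -2.97 to 2.87. All animals were wild-type rabbits (Oryctolagus cuniculus) that were given vehicle or obeticholic acid (OCA) and then underwent portal vein embolization. Bulk RNA was sequenced from the cranial lobe, which was embolized, the caudal lobe, which was not, and the terminal ileum, with 6 libraries for each tissue and treatment. Vehicle animals and OCA animals share the embolization, so no unoperated liver is among the groups. The embolized lobe was the cranial one in every library, so lobe position and embolization cannot be told apart. The labels do not state strain, age or dose, and do not say whether the 6 libraries of a group came from 6 separate rabbits, so the p-values below measure the spread between libraries, which may be technical.

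Portal vein embolization blocks the portal blood supply of a part of the liver; the deprived lobe shrinks while the rest of the liver grows. Portal blood carries nutrients, bile salts and hormones from the gut, and a lobe that loses it keeps its arterial supply. OCA is a semisynthetic bile acid that activates the nuclear receptor FXR, which lowers bile acid synthesis in hepatocytes and induces an enterokine in the terminal ileum that signals to the liver.

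Membership rested on 2 measures. The tissue ratio was the log2 of the mean liver level plus 1 over the mean ileum level plus 1, with every library scaled to the same total, and had to lie between -3 and 3; the mean normalized count in the 24 liver libraries had to be at least 50. Of the 9419 genes, 8150 met the first limit, 6521 the second and 5859 both. Of 4 identifiers that the rule leaves out, 3 met both limits, which left 5856 eligible genes. The members were chosen by their lobe differences: eligible genes were ranked by the smaller of their 2 lobe differences, each the mean log2(normalized count + 1) in the embolized lobe minus that in the non-embolized lobe under one treatment, and the top 150 were taken. The lobe differences and tissue ratios of the 150 genes therefore describe how they were chosen and are not tested as findings. The files pair no identifier with a gene name, and 0 of the 9419 identifiers matched the RefSeq gene table, so members are given by Ensembl identifier and no role is assigned to them. For the same reason the labelled tissues could not be checked against marker genes, and the part of any cell type in these differences was not tested.

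The members spanned a wide range of abundance. Their mean normalized count in liver had a median of 133 and ran from 50.1 to 400790. In 59 members the mean was under 100, in 78 it was from 100 to 1000, and in 13 it was 1000 or more. The most abundant was ENSOCUG00000014317, whose normalized counts were 234854 to 273656 (median 255802) in the non-embolized lobe under vehicle and 365887 to 848474 (median 600473) in the embolized lobe under vehicle. Under OCA its counts were 173581 to 270150 (median 229200) in the non-embolized lobe and 269235 to 672756 (median 541711) in the embolized lobe. The lobes did not overlap for this gene under vehicle, and under OCA the lowest embolized library fell just under the highest non-embolized one.

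In the ranking that chose them, the lobe difference of the 150 members had a median of 1.75 on the log2 scale under vehicle (range 1.08 to 4.12) and of 2.32 under OCA (range 1.08 to 6.86), beside medians of -0.01 and -0.05 over the 5856 eligible genes. The difference was larger under OCA in 123 of the 150, beside 50.8% of all tested genes. Both differences chose the members, so this count describes the list. In bulk tissue, a change in the number of cells of a type cannot be told apart from a change in RNA per cell. At the limit of the list, ENSOCUG00000017502 entered last with a smaller difference of 1.08, and ENSOCUG00000025336 stood just outside with 1.07. The contrasts also chose the genes, so the following counts are descriptive: limma called 120 of 150 higher in the embolized lobe under vehicle, where 11.7% of all 8653 tested genes were called higher, and 139 of 150 under OCA, where 16.5% were. The 6 embolized libraries lay wholly above the 6 non-embolized ones in 49 members under vehicle (3.55% of all tested genes), in 106 under OCA (7%) and in 41 under both (1.64%). The libraries were fitted as unpaired. With same-numbered libraries of the lobes paired within each treatment, limma called 139 members under vehicle and 145 under OCA, beside 15.4% and 19.4% of all tested genes called higher.

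The member at the head of the ranking, ENSOCUG00000013559, had normalized counts of 1.74 to 10.4 (median 3.09) in the non-embolized lobe and 11.8 to 575 (median 85.1) in the embolized lobe under vehicle. Under OCA it had 2.19 to 12.6 (median 5.91) and 71.2 to 562 (median 357) in the same lobes. Every embolized library exceeded every non-embolized library of its treatment, and the embolized vehicle libraries covered a far wider range than the non-embolized ones. The second in rank, ENSOCUG00000015483, had 0.692 to 19.4 (median 3.77) and 1.47 to 7737 (median 98.0) under vehicle, and 4.06 to 26.9 (median 6.72) and 39.3 to 13546 (median 1616) under OCA. Its vehicle lobes overlapped and its OCA lobes did not.

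**Figure D1:**
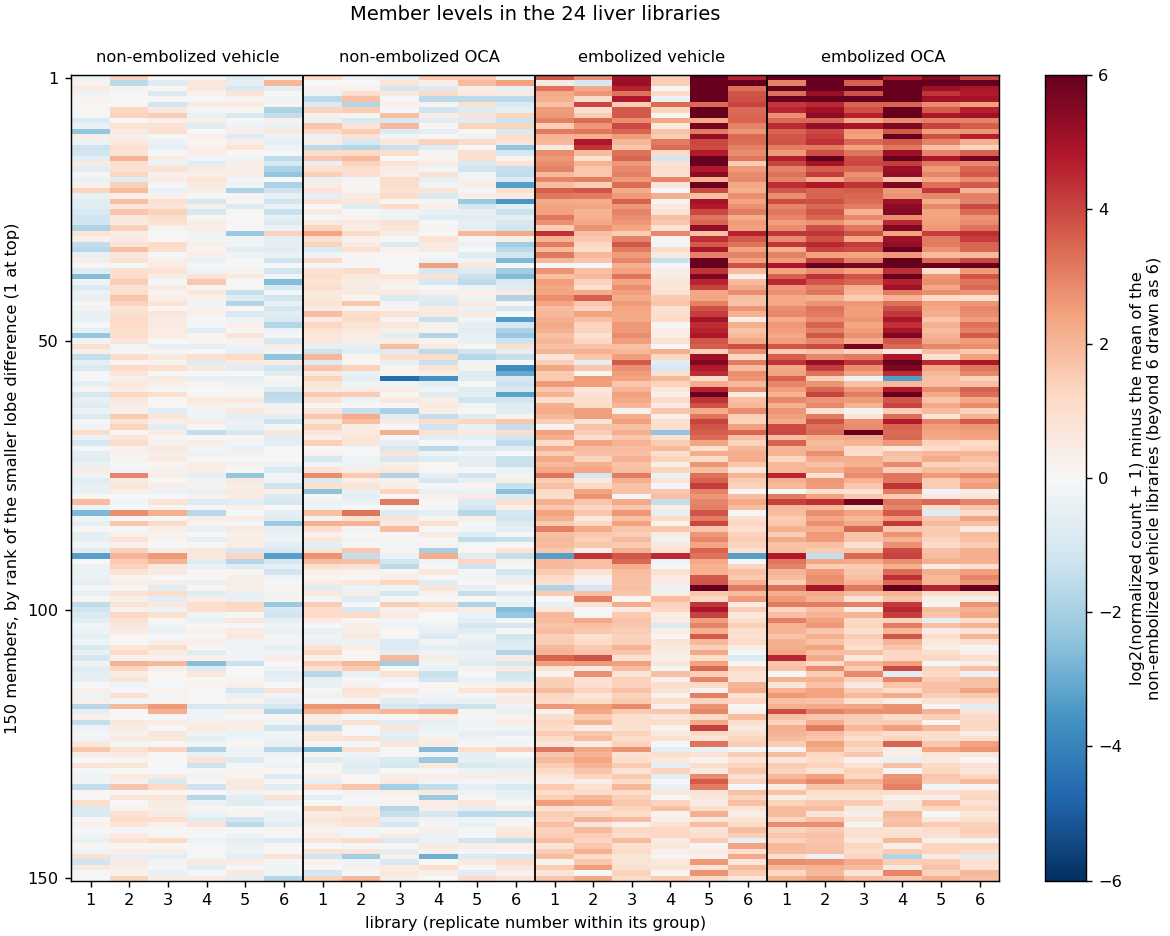
Each row is 1 of the 150 members in order of rank and each column 1 of the 24 liver libraries; colour gives log2(normalized count + 1) minus the gene's mean in the non-embolized vehicle libraries. The 12 embolized libraries are red over most rows, palest in embolized vehicle library 4 and darkest in embolized vehicle library 5 and embolized OCA library 4.

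The libraries did not carry the difference evenly. To show this, each liver library was given the median, over the 150 members, of log2(normalized count + 1) minus the gene's mean in the non-embolized vehicle libraries. Under vehicle, replicates 1 to 6 of the embolized lobe stood at 1.86, 1.66, 2.00, 0.71, 3.08 and 1.80, a mean of 1.85 ± 0.76 (SD, n = 6). Under OCA they stood at 2.34, 2.63, 2.09, 3.09, 1.86 and 2.15, a mean of 2.36 ± 0.44. The vehicle libraries held both the lowest embolized value, in library 4, and a value in library 5 that was close to the highest, in OCA library 4; the OCA libraries lay within the vehicle range except for that last one.

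Vehicle libraries of the non-embolized lobe stood at -0.34, 0.64, 0.29, 0.04, -0.02 and -0.38, and the OCA libraries at 0.49, 0.24, 0.10, -0.05, -0.28 and -0.52. The vehicle group lies near 0 because its own mean was subtracted, and the OCA group also scattered around 0. The lowest embolized library, at 0.71, lay only slightly above the highest non-embolized one, at 0.64. In embolized vehicle library 4, 71 of the 150 members exceeded all 6 non-embolized vehicle libraries. The other 5 embolized vehicle libraries had 118 to 142 such members. In the embolized OCA libraries, 124 to 142 members exceeded all 6 non-embolized OCA libraries. The same libraries ranked the members, so high counts follow from the choice. These counts per library were not made over eligible genes.

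Single libraries also held the extreme value of their group for many members at a time. These libraries took part in choosing the members, so an excess over eligible genes can come from the choice. The counts describe the list. Embolized vehicle library 5 was the highest of its 6 in 93 of 150 members, against 20.2% of eligible genes, and library 4 the lowest in 83, against 17.8%. Embolized OCA library 4 was the highest of its group in 76 members, against 26.1% of eligible genes. Of the 93 members highest in embolized vehicle library 5, 75.3% were also highest in embolized OCA library 4, and these were 92.1% of the latter's 76. Among all 150 members, 50.7% were highest in embolized OCA library 4 and 62% in embolized vehicle library 5. The overlap was not counted over eligible genes. Without embolized vehicle library 5 the median lobe difference under vehicle was 1.50, without library 4 it was 1.99, and without both it was 1.75. Leaving out library 5 left 133 members with a difference of at least 1. The share of reads from the 304 genes with a tissue ratio of 3 or more, that is of the liver-enriched genes, was 49.4% in library 5, the lowest of the 6 embolized vehicle libraries, and 56.9% in library 4, where the other 4 had 50.7% to 59.4%. The share from the 965 ileum-enriched genes, those with a ratio of -3 or less, was 1.37% in library 5 and 0.524% to 0.894% in the other 5 embolized vehicle libraries. In embolized OCA library 4 this ileum-enriched share was 1.33%, against 0.639% to 0.903% in the other 5, and its liver-enriched share of 48.7% was the lowest of its group. Embolized vehicle library 5 and OCA library 4 thus had the highest member levels and the highest share of ileum-enriched reads of their groups. The part of this composition in the members' levels was not tested.

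**Figure D2:**
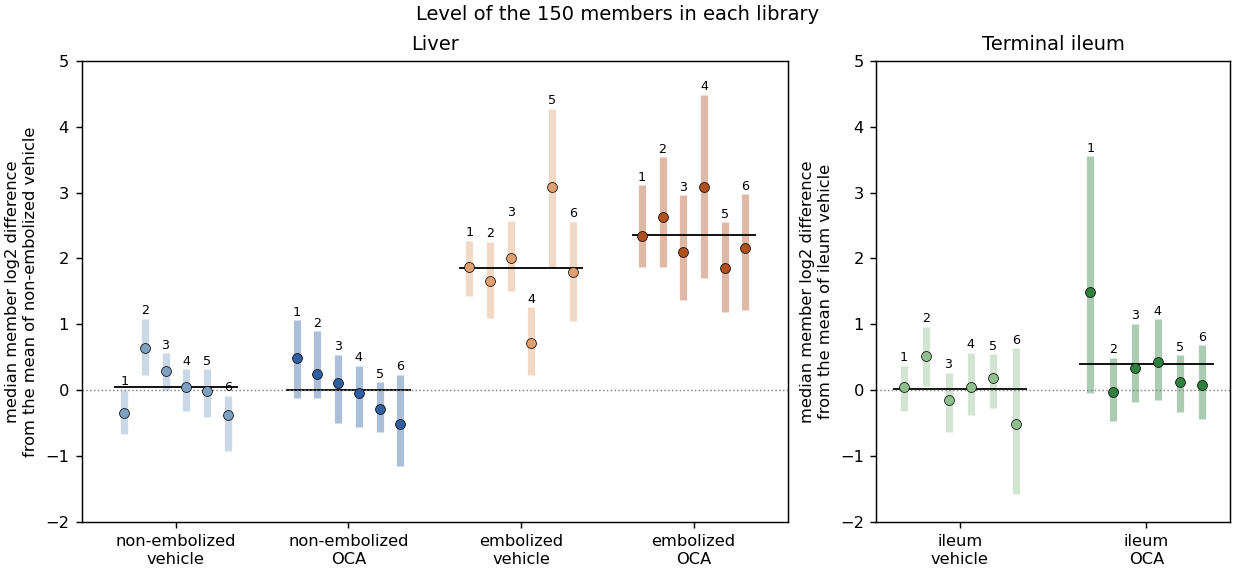
Points give, for each library, the median over the members of log2(normalized count + 1) minus the reference group's mean, bars the middle 50% of members, and black lines the mean of the 6 libraries; numbers are replicate numbers. In the liver, embolized vehicle libraries run from 0.71 to 3.08 and embolized OCA libraries from 1.86 to 3.09; in the ileum, OCA library 1 stands at 1.49.

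The members had a larger median SD between libraries than the eligible genes in every group. A ranking by lobe differences in the same liver libraries can favour genes of wide spread, so the liver values describe the list. The median SD of log2(normalized count + 1) over the 6 libraries was 0.66 for members and 0.28 for eligible genes in the non-embolized vehicle lobe, and 0.71 and 0.32 in the non-embolized OCA lobe. It was 1.08 and 0.37 in the embolized vehicle lobe, and 0.80 and 0.32 in the embolized OCA lobe. In the ileum, whose libraries took no part in the ranking by lobe difference, it was 0.96 and 0.35 under vehicle and 0.97 and 0.43 under OCA. Between 132 and 148 of the 150 members exceeded the eligible median, depending on the group. The ileum values were not matched for level. The gap was present at every abundance: members with a mean liver count of 50 to 100 had a median SD within liver groups of 1.03 against 0.45 for eligible genes of that level, and members at 500 or more had 0.69 against 0.28.

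The extremes of spread were far apart. ENSOCUG00000005558, the most variable member with a within-group SD of 2.60, had normalized counts of 0 to 212 (median 109) in the embolized vehicle lobe and 2.42 to 269 (median 71.0) in the embolized OCA lobe. ENSOCUG00000023899, the least variable at 0.26, had 363 to 825 (median 470.5) and 479 to 745 (median 610.0) in the same groups. The latter had, in the non-embolized lobe, 198 to 262 (median 213) under vehicle and 200.2 to 277 (median 239.5) under OCA, so its lobes did not overlap under either treatment, whereas those of the former overlapped under both.

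**Figure D3:**
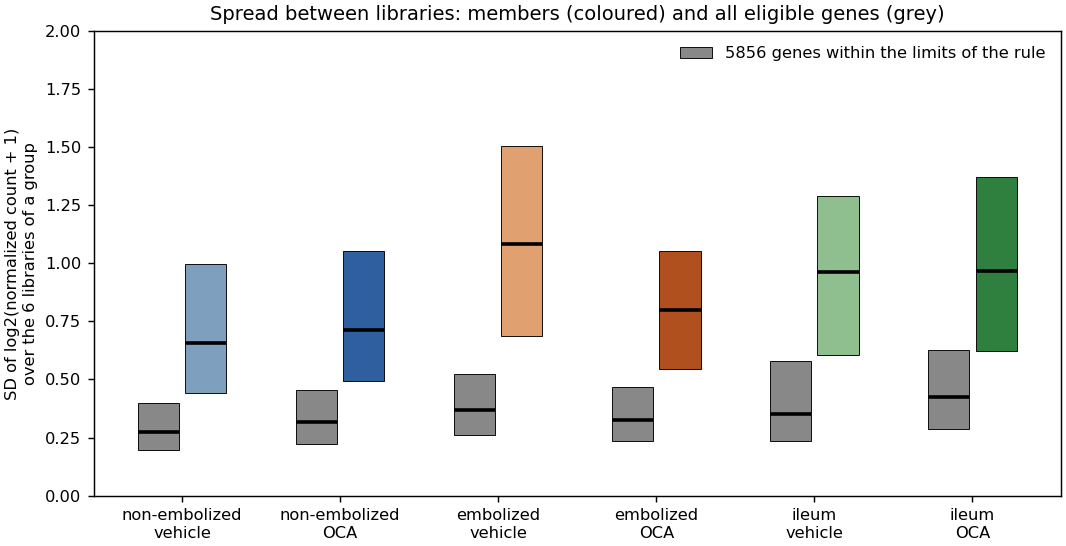
Boxes span the middle 50% of genes and black lines mark the median of the SD of log2(normalized count + 1) over the 6 libraries of each group, for eligible genes in grey and members in colour. Members lie higher in all 6 groups, with medians of 0.66 to 1.08 against 0.28 to 0.43.

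Members also moved together across libraries after group means were removed. Over the 24 liver libraries the median correlation between pairs of members was 0.29, beside 0.01 for pairs of eligible genes, and 31.4% of member pairs exceeded 0.5 beside 9.73% of eligible pairs. The median was 0.35 within the 12 embolized libraries, 0.22 within the 12 non-embolized libraries and 0.20 within the 12 ileum libraries. It was 0.22 in the liver without embolized vehicle libraries 4 and 5, and 0.15 in the ileum without vehicle library 6 and OCA library 1. These values are a description: pairs share genes, and all pairs share the same libraries.

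The next comparison asked how OCA changed the members within each lobe. The liver libraries compared are the ones that chose the members, so the counts describe the list. In the embolized lobe no member passed limma's test with Benjamini-Hochberg adjustment over 8653 genes: 0 of 150 were called, where 0.0578% of all tested genes were called higher and 0.139% lower. At an unadjusted p under 0.05, 31 members were higher and 3 lower, beside 6.51% and 6.19% of all tested genes. On the recovered reads, 0 members passed the adjusted threshold with edgeR (0.196% of tested genes) or DESeq2 (1.06%). At an unadjusted p under 0.05 edgeR had 8 members higher and 2 lower, beside 4.39% and 5.97% of tested genes, and DESeq2 had 9 and 2, beside 4.52% and 6.81%. The estimates leaned upward, with 121 of 150 above 0 beside 53.0% of all tested genes, a median log2 change of 0.58 beside 0.02, and 38 members with an estimate of at least a 2-fold increase beside 3.69%. The standard error of a member's change had a median of 0.47, against 0.23 for all tested genes. It was the same in both lobes, because the fit pooled the 4 liver groups. The members' median SD was 1.08 and 0.80 in the embolized vehicle and OCA groups. In the non-embolized vehicle and OCA groups it was 0.66 and 0.71. The OCA and vehicle ranges were apart, higher under OCA, in 1 member (0.15% of tested genes), ENSOCUG00000029235, named because it is the single gene of that count.

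The number of members called in this comparison depended on which libraries were kept. Embolized vehicle library 5 was the highest of its group in 93 members. Leaving it out therefore raises the estimated OCA change of those members, and the resulting counts have no weight as a test. Without library 5, limma called 24 members higher and 1 lower, where 2.24% and 1.20% of all tested genes were called. With all libraries these shares of tested genes were 0.0578% and 0.139%. The median log2 change of the members without library 5 was 0.87. Without libraries 4 and 5 together, 8 members were called higher and 0 lower, beside 0.693% and 0.381% of tested genes, with a median of 0.68. Without embolized vehicle library 4 the median was 0.38, and without embolized OCA library 4 it was 0.39, against 0.58 with all libraries. The median thus moved down as well as up, depending on the library left out. The labels do not set library 5 apart from the rest of its group.

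The members with the lowest p for a rise in the embolized lobe were ENSOCUG00000006860 and ENSOCUG00000026334. The first had normalized counts of 0, 0, 3.67, 0, 258 and 14.3 in vehicle replicates 1 to 6 and 30.5, 71.5, 54.6, 497, 80.2 and 187 in OCA replicates 1 to 6. All OCA libraries exceeded 5 of the 6 vehicle libraries, and vehicle library 5 exceeded 5 of the 6 OCA libraries. Its log2 change was 4.27 ± 1.00 (SE; limma, adjusted p = 0.0670), and without vehicle library 5 it was 5.40 with a limma adjusted p of 0.000394. Library 5 held the highest vehicle value of this gene, so leaving it out raises the change, and that p has no weight as a test. With all libraries the adjusted p was 0.567 with edgeR and 0.742 with DESeq2. Over 26 other settings the log2 change ran from 1.71 to 5.40. The gene's mean normalized count in the embolized lobe was 46.0 under vehicle and 154 under OCA. Its median in the non-embolized lobe was 0 under both treatments.

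ENSOCUG00000026334 had 331, 82.6, 1612, 75.2, 5899 and 1056 normalized counts in the embolized vehicle replicates and 2435, 4692, 2498, 13333, 2809 and 3759 in the OCA replicates. Again 5 of the 6 vehicle libraries lay below every OCA library, and library 5 was the exception. Its log2 change was 2.92 ± 0.73 (SE; limma, adjusted p = 0.0931), and the limma adjusted p without library 5 was 0.00237. As library 5 was the highest vehicle library here too, the latter p has no weight as a test. The log2 change ran from 1.71 to 3.62 over 26 other settings. Non-embolized libraries ran from 72.3 to 183 under vehicle and from 49.1 to 136 under OCA.

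The members of lowest p for a fall in the embolized lobe did not pass the threshold either. ENSOCUG00000014352 had 17309 to 42452 (median 27055) under vehicle and 9457 to 23157 (median 18759) under OCA, a log2 change of -0.64 ± 0.22 (SE; limma, adjusted p = 0.220), and ENSOCUG00000013965 had 83.9 to 376 (median 142) and 52.5 to 159 (median 97.7), a log2 change of -0.79 ± 0.35 (SE; limma, adjusted p = 0.343). Both pairs of ranges overlapped. Without embolized vehicle library 5 the first had a limma adjusted p of 0.0466. Library 5 held the lowest embolized vehicle value of that gene, so leaving it out enlarges the fall, and this p has no weight as a test.

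In the non-embolized lobe, 1 of the 150 members was called, and it was lower under OCA, where 0.254% of all tested genes were called lower and 0.37% higher. At an unadjusted p under 0.05, 4 members were higher and 8 lower, beside 6.92% and 7.11% of tested genes. The members' median log2 change was -0.03, with 71 of 150 above 0, beside 0.00 and 50.2% for all tested genes. The upward lean of the estimates in the embolized lobe was not seen in the non-embolized lobe, where the middle 50% of members ran from -0.30 to 0.22.

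The member called was ENSOCUG00000014352, the second most abundant of the 150. Its normalized counts were 8014, 7100, 7156, 6600, 4587 and 5526 in vehicle replicates 1 to 6 and 2708, 3907, 3748, 2131, 2854 and 4222 in OCA replicates 1 to 6. The ranges did not overlap, as in 0.89% of tested genes in the same direction. It fell by 1.01 ± 0.22 on the log2 scale (SE; limma, adjusted p = 0.0291), with adjusted p = 0.0296 by edgeR and 0.00156 by DESeq2. Every OCA library was under every vehicle library in this lobe, but the call was lost in 7 of 12 fits that left out 1 library, namely OCA library 1, 4 or 5 or vehicle library 1, 2, 4 or 6, with limma adjusted p up to 0.0931, and in replicates 4 to 6 alone, with 0.332. In the ileum the gene ran from 213 to 3208 under vehicle and from 970.3 to 5661 under OCA, overlapping.

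The other members of lowest p in the non-embolized lobe did not pass limma's test. ENSOCUG00000007635 had 118 to 270 (median 193) normalized counts under vehicle and 74.4 to 160.5 (median 103) under OCA, a log2 change of -0.80 ± 0.23 (SE; limma, adjusted p = 0.0949; DESeq2, adjusted p = 0.0375). Upward, ENSOCUG00000017502 had 11.8 to 104 (median 47.7) and 39.5 to 164 (median 79.3), a log2 change of 0.92 ± 0.38 (SE; limma, adjusted p = 0.267). ENSOCUG00000006719 had 4.21 to 20.8 (median 13.4) and 16.4 to 42.7 (median 27.2), a log2 change of 1.14 ± 0.48 (SE; limma, adjusted p = 0.276). In each of these 3 the treatments overlapped.

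The difference between the OCA changes in the embolized and non-embolized lobes was also fitted. Its terms are the 2 lobe differences that chose the members, so the counts have no weight as a test: 0 of 150 were called (0% of all tested genes), with 9 higher and 0 lower at an unadjusted p under 0.05 beside 4.29% and 3%, a smallest limma adjusted p of 0.561 and a median of 0.57. The adjusted count was 0 with edgeR (0% of tested genes) and with DESeq2 (0.0578%), where 4 and 7 members were higher at an unadjusted p under 0.05, beside 3.42% and 3.68%. The highest estimates by p were ENSOCUG00000026334, at 3.36 ± 1.03 (SE, log2; limma, adjusted p = 0.561), and ENSOCUG00000011027, at 3.72 ± 1.21 (SE; limma, adjusted p = 0.561). ENSOCUG00000011027 had 1.47 to 460.2 (median 28.7) normalized counts in the embolized lobe under vehicle and 95.6 to 422 (median 248) under OCA. Those of lowest p downward were ENSOCUG00000014848, at -0.55 ± 0.42 (SE; limma, adjusted p = 0.793), and ENSOCUG00000007998, at -0.31 ± 0.24 (SE; limma, adjusted p = 0.793).

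**Figure D4:**
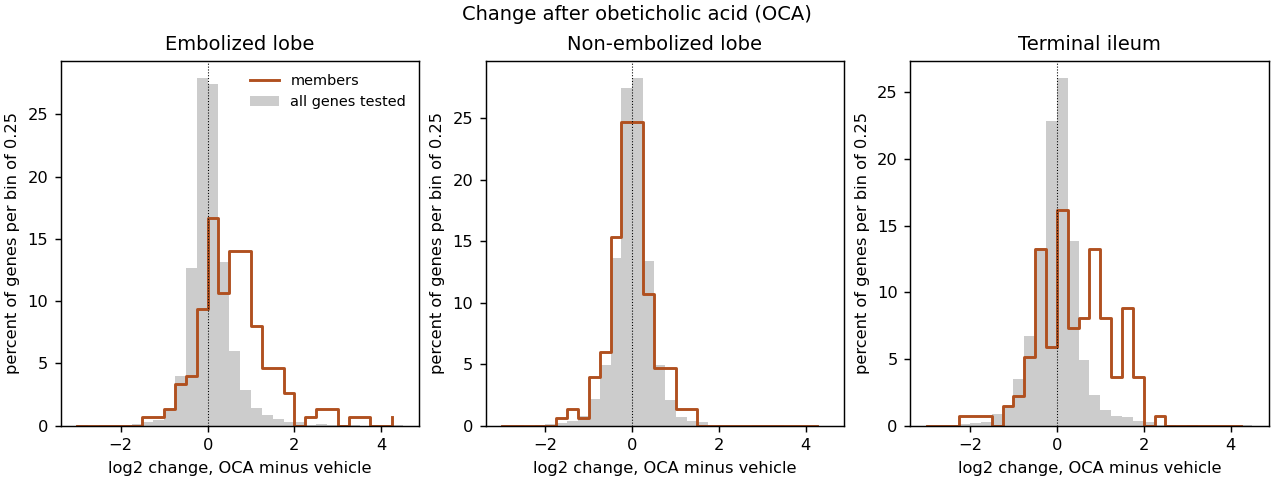
Each panel gives the percent of genes per bin of 0.25 in log2 change after OCA, for all genes tested as grey bars and for members as a line, in the embolized lobe, the non-embolized lobe and the ileum. The members' medians are 0.58, -0.03 and 0.34, against 0.02, 0.00 and 0.00 for all genes.

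In the terminal ileum, whose libraries entered the choice of members only through their mean level, 136 of the 150 members were high enough to test, meaning at least 10 normalized counts in at least 6 libraries. Limma called 0 of the 136 after OCA, where 0% of 9010 tested genes were called. At an unadjusted p under 0.05, 21 were higher and 1 lower by limma, beside 4.1% and 3.54% of all tested genes. By edgeR 35 were higher and 4 lower, beside 5.96% and 4.84%, and 0 were called after adjustment (0% of tested genes). DESeq2 called 4 members higher after adjustment, beside 0.522% of tested genes. The members' median log2 change was 0.34 with 95 of 136 above 0, beside 0.00 and 50.5% for all tested genes. An estimate of at least a 2-fold increase was found in 34 members, beside 3.37% of all tested genes.

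The lean was smaller without 1 library. The ileum libraries were given the median member difference from the ileum vehicle mean, and OCA library 1 stood at 1.49, beside -0.03, 0.34, 0.42, 0.12 and 0.08 in the other OCA libraries and 0.04, 0.52, -0.16, 0.05, 0.19 and -0.51 in the vehicle libraries. OCA library 1 was the highest of its group in 99 of 150 members (32.9% of eligible genes) and vehicle library 6 the lowest of its group in 69 (31.7%). Both libraries also stood apart in composition. Reads from the 965 ileum-enriched genes made up 14.9% of OCA library 1, against 25.7% to 28.6% of the other OCA libraries, and 48.1% of vehicle library 6, against 25.2% to 28.5% of the other vehicle libraries. The most abundant gene took 27.7% of reads in vehicle library 6 and 2.82% to 6.35% in the other 5. The part of this in the members' change was not tested. Without OCA library 1 the median change was 0.13, and without both it was 0.05, with 75 above 0 and 61 below, and limma then called 0 members, beside 0.0777% of all tested genes. Of the 99 members highest in ileum OCA library 1, 75.8% were also highest in embolized vehicle library 5, where they made up 80.6% of its 93. Among all 150 members, 62% were highest in embolized vehicle library 5 and 66% in ileum OCA library 1. This overlap was not counted over eligible genes either.

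The ileum member of lowest p was ENSOCUG00000024216. It had normalized counts of 146, 165, 94.1, 492, 107 and 46.9 in vehicle replicates 1 to 6 and 1590, 804, 743, 441, 340 and 625 in OCA replicates 1 to 6, so only vehicle library 4 lay within the OCA range. Its log2 change was 2.32 ± 0.50 (SE; limma, adjusted p = 0.302; DESeq2, adjusted p = 0.0140). ENSOCUG00000005421 had 2.82 to 22.6 (median 6.66) and 16.2 to 51.3 (median 20.8), a log2 change of 1.65 ± 0.47 (SE; limma, adjusted p = 0.419).

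Downward in the ileum, ENSOCUG00000025509 had 413 to 1836 (median 816) under vehicle and 225 to 680.0 (median 520.0) under OCA, a log2 change of -0.78 ± 0.35 (SE; limma, adjusted p = 0.639). ENSOCUG00000001536 had 3911 to 9910 (median 7889) and 567 to 10440 (median 3593), a log2 change of -1.20 ± 0.57 (SE; limma, adjusted p = 0.649). The treatments overlapped for both, and OCA library 1 held the lowest OCA value of each.

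Most members stood higher in the ileum than in the liver as a whole. With each library scaled to a total of 1000000, the median member had 21.5 in the ileum and 8.98 in the liver, and the tissue ratio was below 0 in 97 members and above 0 in 53, with a median of -0.79. The eligible genes had a median ratio of -1.08, with 4934 of 5856 below 0. The liver and ileum tables were normalized separately, and no test was made between them.

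The position of the members against the ileum differed by lobe. In the non-embolized lobe 27 of 150 members under vehicle and 21 under OCA exceeded their mean ileum level of the same scale, with a median log2 ratio to the ileum of -1.76 and -2.20. In the embolized lobe 71 and 68 members did, with a median ratio of -0.07 and -0.35. Members below and above a tissue ratio of 0 had like lobe differences, with medians of 1.74 and 1.79 under vehicle and 2.24 and 2.46 under OCA. Since the rule set both the ratio and the lobe difference, these are descriptions.

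**Figure D5:**
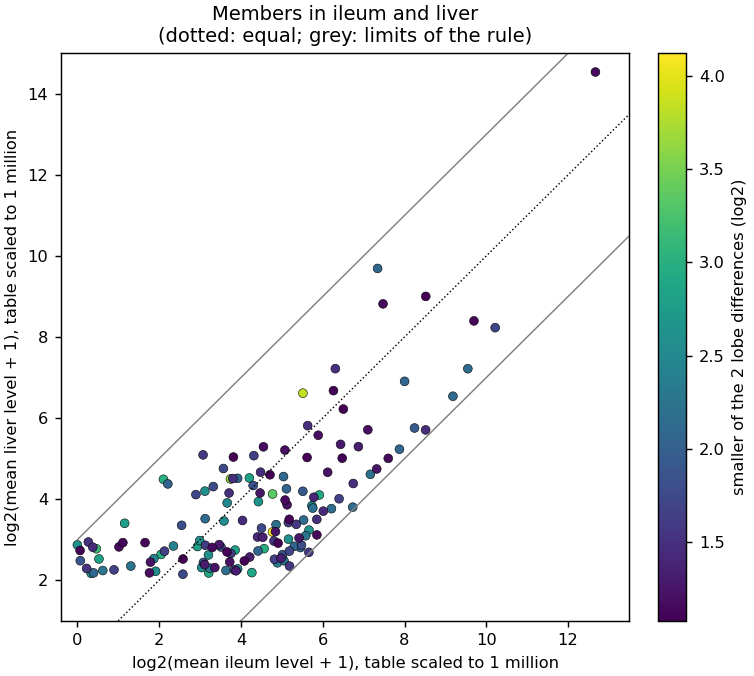
Each point is 1 member, with its mean ileum level on the horizontal axis and its mean liver level on the vertical axis, both log2(level + 1) with libraries scaled to 1000000; colour gives the smaller lobe difference, the dotted line equal levels and grey lines the limits of the rule at -3 and 3. Of the 150 members 97 lie under the dotted line.

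At the liver end, ENSOCUG00000007386 had the highest tissue ratio, 2.87, and was listed at 0 in all 12 ileum libraries, so that its ratio depends on the pseudocount of 1. It ran from 16.6 to 49.1 (median 26.5) in the non-embolized vehicle lobe and from 119 to 240.3 (median 214) in the embolized vehicle lobe, without overlap. The next, ENSOCUG00000004246, had a ratio of 2.67 and 0 to 21.0 normalized counts in the ileum OCA libraries. In all, 138 members were above 0 in every ileum library and 12 were at 0 in at least 1.

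At the ileum end, ENSOCUG00000005164 had a ratio of -2.97 with 483 to 846 (median 729) normalized counts in the ileum under vehicle and 541 to 1697 (median 601) under OCA. In the liver it had 23.2 to 63.0 (median 33.4) in the non-embolized vehicle lobe and 28.0 to 272 (median 117) in the embolized vehicle lobe, so the lobes overlapped. ENSOCUG00000017943, at -2.93, had 74.4 to 909 (median 634) in the ileum under vehicle and 440.1 to 9032 (median 901) under OCA. Its embolized vehicle lobe ran from 46.5 to 1163 (median 145) and its non-embolized vehicle lobe from 18.5 to 78.9 (median 31.5). Both genes had their highest ileum OCA value in library 1.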

How the data were processed

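RNA from 36 libraries was deposited as a table of normalized counts for liver and one for ileum. Per the labels' protocols, total RNA was extracted with a column kit and strand-specific libraries were sequenced as paired-end reads; the submitters' processing notes name STAR, RSEM and DESeq2, with no role or version. The deposited values are a signal: read counts that the authors divided by a size factor for each library. Dividing by the smallest step in each column recovered whole reads for 100% of values (tolerance 0.01), 11.2 to 24.5 Mreads per ileum library and 12.0 to 27.3 Mreads per liver library. No 2 libraries of a group agreed within sampling noise.

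Genes with at least 10 normalized counts in at least 6 libraries were tested (8653 in liver, 9010 in ileum). Log2(normalized count + 1) was fitted with limma 3.58.1 (trend), the 4 liver groups together and the ileum apart, with Benjamini-Hochberg adjustment over all tested genes and a threshold of 0.05. The added count of 1 shrinks ratios between low counts. A difference of mean logs can also exceed the log ratio of the mean counts, where some libraries of a group are near 0. edgeR 4.0.16 and DESeq2 1.42.0 were run on the recovered reads. The level minimum of 50 and the lobe differences used the values as deposited; the tissue ratio used scaled libraries. Named genes were, for each comparison, the 2 rises and 2 falls past the threshold or of lowest p, the first 2 by rank, the 2 at each end of the tissue ratio and of the spread, and the most abundant; no more identifiers were listed because none has a name. The members and lists were chosen with earlier results of these data known. Scripts were tested on simulated data.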

Additional observations from a re-analysis of the deposited data

Results flagged for a closer look

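Results were picked out where 1 library stood far from the other 5 of its group, relative to the group's range. Of 144 groups examined 13 were picked out, where chance gives about 1 in 20 for independent groups. The groups here share libraries and the members move together, so the 13 cannot be compared with that rate. The median member difference of ileum OCA library 1 was 1.49, with the others between -0.03 and 0.42. For single members, ileum OCA library 1 was far above its group for ENSOCUG00000004246 (21.0 normalized counts, others up to 0.809), ENSOCUG00000005164 (1697, others up to 628) and ENSOCUG00000017943 (9032, others up to 956). Ileum vehicle library 6 was far below its group for ENSOCUG00000014352 (213, others from 1825), ENSOCUG00000017943 (74.4, others from 566) and ENSOCUG00000013559 (22.6, others from 275), and far above it for ENSOCUG00000017502 (1562, others up to 405). Embolized OCA library 4 was low for ENSOCUG00000014352 (9457, others from 16802) and high for ENSOCUG00000017943 (1105, others up to 257). In the non-embolized lobe, OCA library 4 had 4.82 for ENSOCUG00000006860, with others up to 0.698, and 15.4 for ENSOCUG00000013965, with others from 38.3, and vehicle library 3 had 0.522 for ENSOCUG00000006860, with 0 in the others. The value of 0.522 is 1 read in non-embolized vehicle library 3. Likewise 0.698 is 1 read in non-embolized OCA library 5, and 0.809 is 1 read in ileum OCA library 4. Those values lie at the floor. Of the 13, 8 were in the ileum. The causes were not tested.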

How the results depend on the processing

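Shares in brackets are of all tested genes called under the same setting, in either direction. The number of members called after OCA in the embolized lobe was 0 (0.196%) and became 3 with sample quality weights (1.21%), 1 with a term for replicates 1 to 3 against 4 to 6 (0.439%), 1 in replicates 1 to 3 alone (0.0809%), 8 without embolized vehicle libraries 4 and 5 (1.07%; chosen after seeing the data), and 0 to 25 when 1 library was left out, 25 without embolized vehicle library 5 (3.44%). In the non-embolized lobe it was 1 (0.624%) and became 3 with quality weights (4.6%), 3 with DESeq2 (3.06%), 0 in replicates 4 to 6 alone (0.3%) and 0 to 1 with 1 library left out. The 3 members under weights and under DESeq2 were all lower, a share of the 150 close to the 2.16% and 1.38% of all tested genes called lower. In the ileum it was 0 (0%) and became 6 with quality weights (3.87%) and 4 with DESeq2 (0.888%). The difference between lobes gave 0 under every setting run. The embolized-lobe counts without vehicle library 5, alone or with library 4, leave out libraries seen to be extreme. They have no weight as a test.

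Replicate numbers did not pair the treatments: same-numbered libraries deviated together (correlation over 0.1) in 4 of 6 pairs in the non-embolized lobe, 2 of 6 in the embolized lobe and 1 of 6 in the ileum. The replicate block gave 0, 1, 0 and 0 members for the embolized lobe, the non-embolized lobe, the difference between lobes and the ileum, and so changed no count of members called. Between the lobes, same-numbered libraries deviated together in 6 of 6 pairs under vehicle (0.14 to 0.53) and in 5 of 6 under OCA, while the labels do not say that a number marks 1 rabbit. A replicate block of the lobes within each treatment, added after seeing the data, gave 139 members under vehicle (120 without it), 145 under OCA (139 without it) and 0 for the difference between lobes.

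The list itself kept 124 to 147 of 150 members with 1 library left out and 17 when the level minimum and lobe differences were read on scaled libraries. On that scale only 17 of the 150 met the level minimum of 50, and 1281 genes were eligible in place of 5856. No change of a named gene reversed. The cause of the other shifts was not tested. Depth limits the lowest members, some at 0 in single libraries.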
